A study of Homo sapiens with 8 samples.

Results

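The HOXB genes examined here are HOXB2, HOXB3, HOXB4, HOXB5, HOXB6, HOXB7, HOXB8 and HOXB9, 8 of the 58870 gene rows in the deposited table. They were chosen by name from 1 cluster on chromosome 17, because the cluster lies in a stretch of that chromosome whose genes were higher together in ELAPOR1 libraries. Differences of these genes between the groups are therefore given as a description, without a test. The RNA came from Panc 10.05, a widely used cell line grown from a human ductal tumour of the pancreas, and was sequenced as 8 libraries. The control group had 4 libraries, and the ELAPOR1 group had 4 libraries of the same line carrying an ELAPOR1 transgene that overexpresses the gene. The labels state neither the vector, nor what the control cells carried, nor whether the line was a pool or 1 clone, nor whether replicates were separate cultures. P-values therefore measure only the spread between these libraries, which may be technical.

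Total counts per library, in units of 1000000, ranged from 13.8 to 18.1. ELAPOR1, listed under its older symbol KIAA1324, had 1 to 4 counts per control library and from 5910 to 7368 where the transgene was present, so all 8 libraries matched their labels. The epithelial and ductal markers KRT7, KRT8, KRT18, KRT19, EPCAM, CDH1 and SOX9 reached 10 counts, and the 4 acinar markers were at 0 in every library. In counts per 1000000 (CPM), the fibroblast list summed to 2.83 to 4.27 in control and 2.71 to 3.19 in ELAPOR1 libraries, with DCN and COL1A2 at 0, and the endocrine list to at most 0.246, with CHGA and INS at 0. The endothelial list, nearly all of it VWF, summed to 1.61 to 1.95 CPM in control and 0.576 to 0.865 in ELAPOR1 libraries, with CDH5 at 0. The leukocyte list, nearly all of it CD68, summed to 81.8 to 87.9 and 72.6 to 78.8 CPM, with CD3E at 0. The part of other cells in the results was not tested, and in such bulk samples fewer cells of a type and less RNA per cell cannot be told apart. Means are given ± SD over the 4 libraries of a group.

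HOX genes encode transcription factors that share a DNA-binding homeodomain and give cells positional identity along the body axis. In humans they lie in the HOXA, HOXB, HOXC and HOXD clusters on separate chromosomes, and genes with the same number in different clusters are paralogs. Genes at the 3′ end of a cluster (low numbers) are switched on earlier and more anteriorly in the embryo than those at the 5′ end (high numbers). HOX proteins bind DNA together with PBX and MEIS proteins of the TALE class, and their clusters are held silent by Polycomb and kept active by Trithorax complexes. In carcinoma cells HOXB7 and HOXB9 are known mostly for links to growth, invasion and angiogenic signals.

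All 8 genes lie on the minus strand of chromosome 17 in GRCh38, between 48540894 and 48633572, a span of 92.7 kb. HOXB2 lies at the 3′ end, and at the 5′ end HOXB8 and HOXB9 lie inside the annotated extent of HOXB7. The cluster as annotated runs from HOXB1 (start 48528526) to HOXB13 (end 48729178), 201 kb. Besides the 8 genes, 19 are annotated from end to end, and 15 of them were at 0 in every library, among them HOXB1, HOXB13, PRAC1, PRAC2, HOXB-AS1, HOXB-AS2 and HOXB-AS4. With 0 counts, a level of up to 0.0229 CPM over the 8 libraries together remains possible (3 counts of their total, for counting error only). HOXB-AS3, an antisense transcript across HOXB3, HOXB5 and HOXB6, had 1 count in all 8 libraries. The other 3 with a count, AC103702.1, AC103702.2 and LINC02086, had 9, 10 and 7 counts over all libraries.

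The cluster also holds the microRNA genes MIR10A, inside HOXB4, and MIR196A1, upstream of HOXB9 and inside the extent of HOXB7. Both rows were at 0, as were all HOXB-AS rows except HOXB-AS3. Gene counts of this kind do not measure mature microRNAs, so the rows say nothing of the mature forms. Their mature 5p sequences (RefSeq, GRCh38.p14) are shown because microRNAs of these families are known regulators of HOX messages. Capitals mark the seed, bases 2 to 8, and the seeds of the pair differ.
hsa-miR-10a-5p: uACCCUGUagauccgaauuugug
hsa-miR-196a-5p: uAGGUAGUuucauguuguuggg
The first lies at chr17:48579904-48579926 and the second at chr17:48632532-48632553, both on the minus strand.

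HOXB1, the 3′ end of the cluster, is known for a regulatory element upstream of its start through which HOX and PBX proteins maintain its own expression. The 250 bases before its start (RefSeq, GRCh38.p14, chr17:48531012-48531261, minus strand, written 5′ to 3′) are shown because this end of the cluster was silent here. Capitals mark the match to TGATNNAT, a form of the joint PBX and HOX site, searched on both strands.
HOXB1 upstream region: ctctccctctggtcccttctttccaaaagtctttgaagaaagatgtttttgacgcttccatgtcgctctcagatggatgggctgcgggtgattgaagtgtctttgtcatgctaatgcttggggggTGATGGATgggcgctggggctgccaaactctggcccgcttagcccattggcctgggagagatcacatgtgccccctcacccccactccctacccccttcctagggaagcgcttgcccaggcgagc
There was 1 match, starting 125 bases before the start. The motif occurred in 2273 of 35116 promoter windows of the same length (6.47%) and in 3 of 27 windows of HOX genes, and a match is not evidence of binding. HOXB2 to HOXB9 had no window in the set searched.

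Of the 8 HOXB genes, 5 had enough counts to enter the fit across all genes, namely HOXB3, HOXB5, HOXB6, HOXB7 and HOXB9. HOXB6 and HOXB7 were higher in all 4 ELAPOR1 libraries than in any control library (for HOXB7 not under 2 of 4 scalings), HOXB9 was higher on average with overlapping groups, and HOXB3 and HOXB5 overlapped broadly. Their median log2 fold change of ELAPOR1 over control (log2FC) was 0.31, from 0.039 to 0.40, beside 0.00087 for all 13860 genes tested. The differences are modest: 8.40% of all tested genes had a larger log2 fold change than HOXB6, and 11.7% a larger one than HOXB7. Of the 5, HOXB6 and HOXB7 were past an edgeR adjusted p-value of 0.05 in the higher direction, as were 22.6% of all genes tested, and nothing is read from this count because the contrast chose the genes. HOXB6 and HOXB7 were also the only HOXB genes whose groups did not overlap, against 20% of all tested genes in that direction and 39.2% in either.

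**Figure D1:**
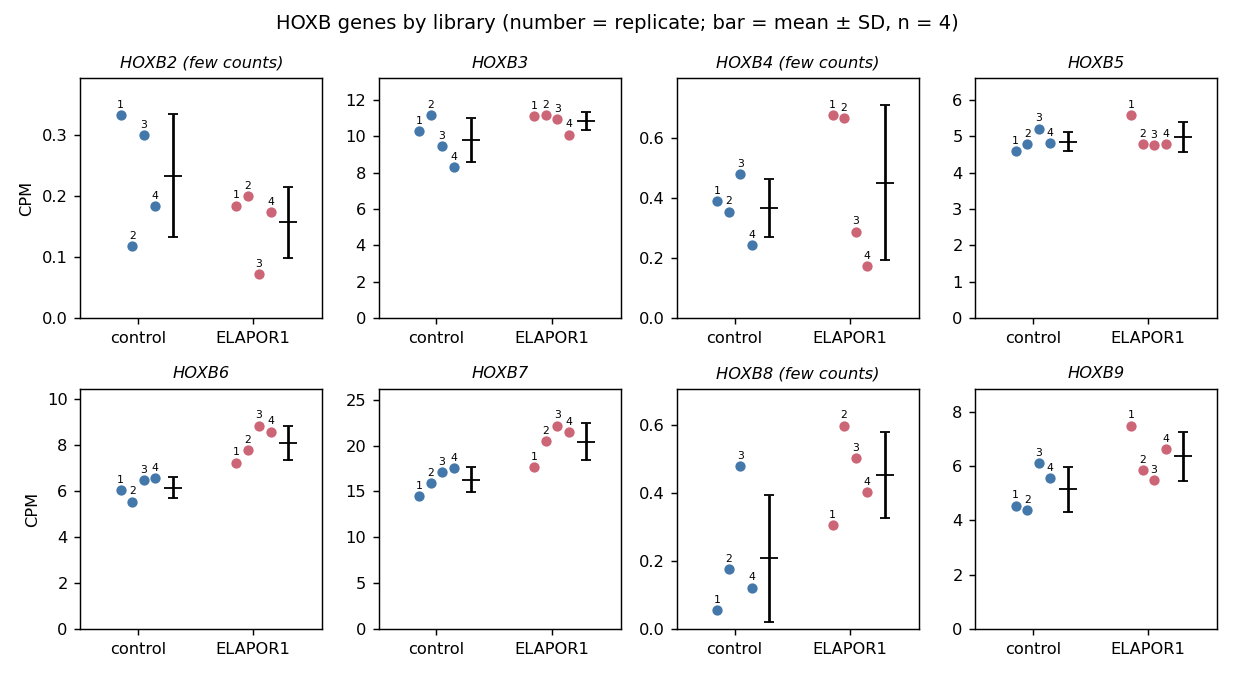
Normalized read counts (CPM, linear axes from 0) of the 8 HOXB genes in the 4 control (blue) and 4 ELAPOR1 (red) libraries, each point labelled with its replicate number, with the mean ± SD beside it. The groups are apart only for HOXB6 and HOXB7, the latter not with DESeq2 size factors or upper-quartile scaling, and HOXB2, HOXB4 and HOXB8 stayed under 0.7 CPM in every library.

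The 3′ genes come first. HOXB2 (ENSG00000173917.10, 48540894 to 48544989), whose homologue patterns the hindbrain, had 6, 2, 5 and 3 counts in control libraries and 3, 3, 1 and 3 in ELAPOR1 libraries. The group totals were 16 (exact Poisson 95% interval 9.15 to 25.98) and 10 (4.80 to 18.4). HOXB4 (ENSG00000182742.6, 48575513 to 48580111), known for expanding blood stem cells, had 7, 6, 8 and 4 counts in control and 11, 10, 4 and 3 in ELAPOR1 libraries. Its totals were 25 (16.2 to 36.9) and 28 (18.6 to 40.5). For both genes the groups overlapped, and a difference between them was not detectable at this depth.

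HOXB3 (ENSG00000120093.11, 48548870 to 48604912), a regulator of hindbrain and pharyngeal patterning, has an annotated extent that contains HOXB4 and HOXB5, and it had more counts than HOXB2 or HOXB4. Its values were 10.3, 11.2, 9.47 and 8.29 CPM in control libraries and 11.1, 11.2, 10.9 and 10.1 CPM in ELAPOR1 libraries. The ELAPOR1 libraries sat at the upper end of the control range, and 1 of them exceeded the highest control. The means were 9.81 ± 1.22 and 10.8 ± 0.501 CPM, a log2FC of 0.14 (SE 0.102). The coefficient of variation was 12.5% in control and 4.62% in ELAPOR1 libraries, beside 7.73% and 7.69% from counting error alone.

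Of the central genes, HOXB5 (ENSG00000120075.5, 48591257 to 48593961), which takes part in lung and enteric nervous system development, showed the smallest difference. It was at 4.60, 4.78, 5.21 and 4.82 CPM in control libraries and at 5.59, 4.79, 4.75 and 4.79 CPM in ELAPOR1 libraries. Apart from ELAPOR1 replicate 1, the ELAPOR1 libraries lay inside the control range. The log2FC was 0.039 (SE 0.140), and without ELAPOR1 replicate 1 it was -0.022. The value of HOXB5, in the middle of the cluster, was near the median of the whole table. With this SE it cannot be told apart from the median of 0.17 within 1 Mb on either side of the cluster.

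HOXB6 (ENSG00000108511.10, 48595751 to 48604992), known from blood, lung and skin development, was higher in every ELAPOR1 library. The values were 6.04, 5.55, 6.47 and 6.58 CPM in control libraries and 7.24, 7.78, 8.85 and 8.59 CPM in ELAPOR1 libraries. Means were 6.16 ± 0.472 and 8.12 ± 0.741 CPM, a log2FC of 0.40 (SE 0.120). The lowest ELAPOR1 library exceeded the highest control by 0.659 CPM, and the groups stayed apart under each of the 4 scalings compared.

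HOXB7 (ENSG00000260027.4, 48607227 to 48633572), a factor often raised in carcinomas, gave more counts than any other HOXB gene, before any division by length. It was at 14.5, 15.9, 17.1 and 17.56 CPM in control libraries and at 17.62, 20.5, 22.2 and 21.5 CPM in ELAPOR1 libraries. ELAPOR1 replicate 1 was only 0.0581 CPM above the highest control, less than the 0.0614 CPM that 1 count is worth there. The groups overlapped with DESeq2 size factors, where that library was 0.0160 CPM below the highest control, and with upper-quartile scaling, where it was 0.0888 CPM below. The means were 16.3 ± 1.38 and 20.4 ± 2.001 CPM, a log2FC of 0.33 (SE 0.0829).

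At the 5′ end, HOXB8 (ENSG00000120068.6, 48611377 to 48614939), known in myeloid progenitors, was barely detected although it lies inside the extent of HOXB7. It had 1, 3, 8 and 2 counts in control and 5, 9, 7 and 7 in ELAPOR1 libraries. The totals were 14 (exact Poisson 95% interval 7.65 to 23.5) and 28 (18.6 to 40.5), and control replicate 3 lay inside the ELAPOR1 range. HOXB9 (ENSG00000170689.10, 48621159 to 48626356), linked to angiogenic factors and lung metastasis, was at 4.55, 4.37, 6.11 and 5.55 CPM in control libraries. In ELAPOR1 libraries it was at 7.49, 5.85, 5.47 and 6.63 CPM, and 2 of the 4 exceeded the highest control. Its means were 5.14 ± 0.8295 and 6.36 ± 0.893 CPM, a log2FC of 0.31 (SE 0.142). HOXB7 and HOXB9 differed in which library was extreme, since ELAPOR1 replicate 1 was the lowest ELAPOR1 library for HOXB7 and the highest for HOXB9.

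Added over the 8 genes, the cluster was at 40.7, 42.4, 45.6 and 43.3 CPM in control libraries and at 50.2, 51.6, 53.1 and 52.3 CPM in ELAPOR1 libraries. The groups of this sum were apart, with means of 43.0 ± 2.03 and 51.8 ± 1.22 CPM, a ratio of 1.20. Without HOXB7 the means were 26.8 ± 1.21 and 31.4 ± 0.833 CPM, a ratio of 1.17. The makeup of the sum differed little: HOXB7 gave 37.8 ± 2.06% of its counts in control and 39.4 ± 3.003% in ELAPOR1 libraries, HOXB3 22.9 ± 3.47% and 21.0 ± 1.27%, and HOXB5 11.3 ± 0.132% and 9.63 ± 1.01%. For HOXB5, 3 ELAPOR1 libraries lay between 8.96% and 9.29%, under the lowest control at 11.11%, while ELAPOR1 replicate 1 was at 11.12%.

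The counts of HOXB3 and HOXB6 were not independent. In 7 of 8 libraries the estimates of both held a fraction (186.13 and 108.87 in control replicate 1, for example), and in all 8 their sum was a whole number within 0.011 counts. No other HOXB gene had a fractional count. HOXB3 and HOXB6 share 433 exonic bases on the same strand in the annotation, 16.6% of the exonic length of HOXB6, and reads there cannot be assigned to 1 of them alone. The share given to HOXB6 was 36.9, 33.3, 40.7 and 44.3% in control libraries and 39.3, 40.9, 44.7 and 45.9% in ELAPOR1 libraries, with overlapping groups. Added to each other, in a calculation added after the data were seen, the pair was at 16.4, 16.7, 15.9 and 14.9 CPM in control and 18.4, 19.0, 19.8 and 18.7 CPM in ELAPOR1 libraries. These groups were apart, and the log2 ratio of their means (16.0 ± 0.791 and 18.95 ± 0.617 CPM) was 0.25. HOXB6 also shares 425 exonic bases with the antisense HOXB-AS3. The use of strand was not given in the sources used here.

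**Figure D2:**
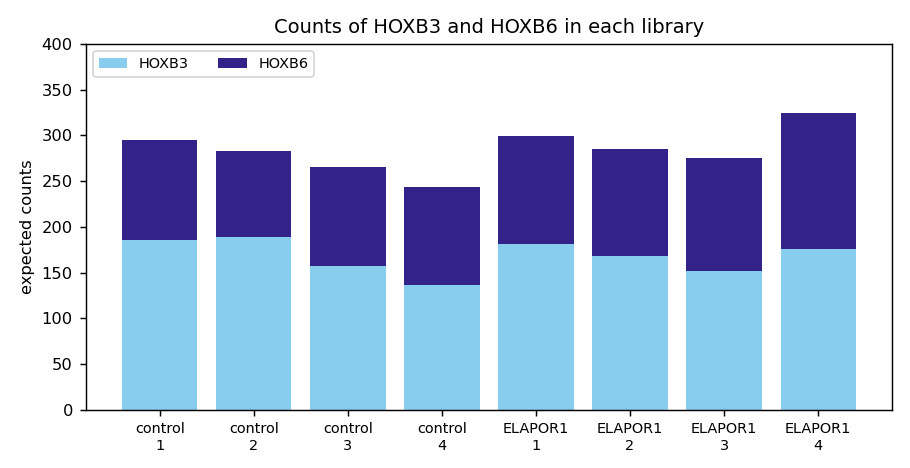
Expected counts of HOXB3 (light) and HOXB6 (dark) stacked for each library, not scaled for depth, on an axis from 0. Each stack adds to a whole number, from 244 in control replicate 4 to 324 in ELAPOR1 replicate 4, while the border between the genes moves from library to library.

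Between genes, levels can be compared only per length, so CPM was divided by the exonic length in kilobases. On this scale HOXB7 was highest, at 10.6 ± 0.8999 CPM per kb in control and 13.4 ± 1.31 in ELAPOR1 libraries, and its range lay above that of every other HOXB gene in both groups. In control libraries HOXB5 (2.38 ± 0.127), HOXB6 (2.37 ± 0.181) and HOXB9 (1.99 ± 0.321 CPM per kb) followed, each overlapping the next in range. HOXB3 came after them at 1.32 ± 0.164 CPM per kb. HOXB8, HOXB2 and HOXB4 were at 0.102, 0.0999 and 0.0975 CPM per kb in control libraries, with overlapping ranges. In ELAPOR1 libraries HOXB6 ranked second, at 3.12 ± 0.285 CPM per kb, and still overlapped HOXB9. The place of HOXB3 depends on its length, which is 7456 exonic bases, 4208 in its longest transcript and 565 in its shortest coding transcript. With the last of these it would stand above HOXB7, at 17.4 against 11.9 CPM per kb in control libraries.

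The same measure sets the HOXB genes beside their HOXA paralogs, which the choice of genes did not use. The order of HOXA and HOXB levels differed by paralog number. HOXA2 was at 1.997 ± 0.292 CPM per kb in control libraries, against 0.0999 for HOXB2. HOXA3 was at 7.97 ± 0.310 against 1.32 for HOXB3, and HOXA4 at 0.882 ± 0.229 against 0.0975 for HOXB4. For these 3 numbers the ranges of HOXA and HOXB did not overlap in either group. For number 6 the ranges overlapped in control libraries, with HOXA6 at 1.79 ± 0.619 CPM per kb, but not in ELAPOR1 libraries (2.12 ± 0.0998 against 3.12). For number 5 they overlapped in both groups, with HOXA5 at 2.90 ± 0.377 CPM per kb in control. For number 7 the order was the other way: HOXA7 had 3 counts over all 8 libraries, against 2379 for HOXB7. HOXB9 was also above HOXA9 (0.456 ± 0.212 CPM per kb in control), with no overlap of ranges in either group. For number 13 HOXA was again the higher, with HOXA13 at 0.131 ± 0.0574 CPM per kb in control libraries and HOXB13 at 0. With the longest transcript as length, HOXA3 was at 10.1 and HOXB3 at 2.33 CPM per kb in control libraries. With its shortest coding transcript HOXB3 was at 17.4 CPM per kb there. That length was not used for HOXA3, so the order of HOXA3 and HOXB3 rests on the lengths chosen.

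**Figure D3:**
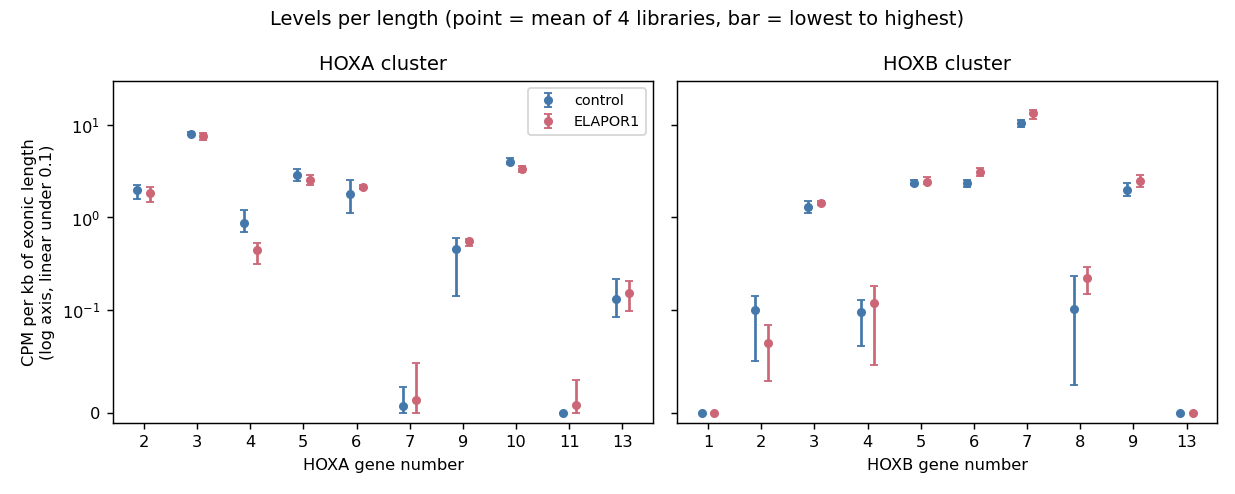
Level per length (CPM per kb of exonic length, logarithmic above 0.1 and linear below) of 10 HOXA genes (left) and the HOXB genes (right) by gene number, for control (blue) and ELAPOR1 (red) libraries. Points are means of 4 libraries and bars run from the lowest to the highest; HOXA3 is the highest HOXA gene and HOXB7 the highest HOXB gene, and HOXB1 and HOXB13 are at 0.

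The other HOX clusters were tested gene by gene in the same fit. The HOXA cluster summed to 66.7 ± 2.78 CPM in control and 61.5 ± 3.23 CPM in ELAPOR1 libraries, with overlapping ranges. Of 11 HOXA genes, 9 were tested and 2 were called, both lower (22.2% of those tested, beside 44.7% of all tested genes called in either direction). HOXA4 fell from 1.54 ± 0.400 to 0.782 ± 0.181 CPM, a log2FC of -0.97 (SE 0.312, edgeR adjusted p = 0.01102), lower in 4 of 4 ELAPOR1 libraries than in any control. The call was lost without control replicate 2 (-0.78, adjusted p = 0.0677). HOXA10, a regulator of uterine and limb patterning, fell from 14.7 ± 1.17 to 12.5 ± 0.904 CPM (-0.23, SE 0.0887, edgeR adjusted p = 0.0378, over all alternatives 0.0301 to 0.163). Its call was lost with total counts, without a filter, with DESeq2 (adjusted p = 0.0729), with the replicate number as a block (adjusted p = 0.0530), and without control replicate 3, ELAPOR1 replicate 1 or ELAPOR1 replicate 3.

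The other tested HOXA genes were not past the threshold. HOXA3, at 34.3 ± 1.33 against 32.6 ± 2.57 CPM, had a log2FC of -0.074 (SE 0.0619, edgeR adjusted p = 0.355). HOXA2 and HOXA5 had log2FC values of -0.12 and -0.18, and HOXA6, HOXA9 and HOXA13 of 0.24, 0.27 and 0.23. The median over the 9 tested HOXA genes was -0.12. The difference between the HOXA and HOXB responses was not tested, because the HOXB genes were chosen from the contrast.

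HOXC and HOXD genes were near the floor. Of 9 HOXC genes, 4 were at 0 in every library and HOXC10 and HOXC13 were tested, with log2FC values of 0.86 (SE 0.424, edgeR adjusted p = 0.0994) and -0.65 (SE 0.415, adjusted p = 0.210). The HOXC10 call appeared without control replicate 1 (1.30, adjusted p = 0.0268). Neither was called by edgeR in the full set of libraries, and neither had an unadjusted p under 0.05, and DESeq2 and limma-voom called 0 of them. Of 9 HOXD genes, 8 were at 0 in every library and none could be tested.

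Genes around the cluster were described in the same way as its members, since they belong to the same stretch. On the centromeric side within 1 Mb, 12 of 16 tested genes had a log2 fold change above 0, with a median of 0.17. On the telomeric side it was 8 of 10, with a median of 0.17. Over the remaining 784 tested genes of chromosome 17 the median was 0.025, and over all tested genes 50.1% were above 0.

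Of the 4 nearest tested protein-coding genes on the centromeric side, SKAP1, a T cell adaptor 98.3 kb away, had a log2FC of 0.14 (SE 0.238). SNX11, an endosomal sorting nexin, had 0.41 (SE 0.0988), from 9.47 ± 1.11 to 12.6 ± 0.685 CPM. CBX1, a heterochromatin protein, had 0.13 (SE 0.0390), and NFE2L1, a regulator of proteasome genes, 0.21 (SE 0.0411). On the telomeric side CALCOCO2, an autophagy receptor 102 kb away, had 0.20 (SE 0.0485), from 49.9 ± 0.866 to 57.3 ± 2.88 CPM. ATP5MC1, a subunit of ATP synthase, had -0.033 (SE 0.0705). UBE2Z, a ubiquitin-conjugating enzyme, had 0.11 (SE 0.0368), and SNF8, of the ESCRT-II complex, 0.13 (SE 0.0532). The ranges of the groups did not overlap for NFE2L1, CBX1, SNX11, CALCOCO2 and UBE2Z, all with ELAPOR1 libraries above. The values of HOXB6, HOXB7 and HOXB9 were thus above those of 7 of these 8 neighbours, all but SNX11. That of HOXB5 was below 7 of the 8.

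**Figure D4:**
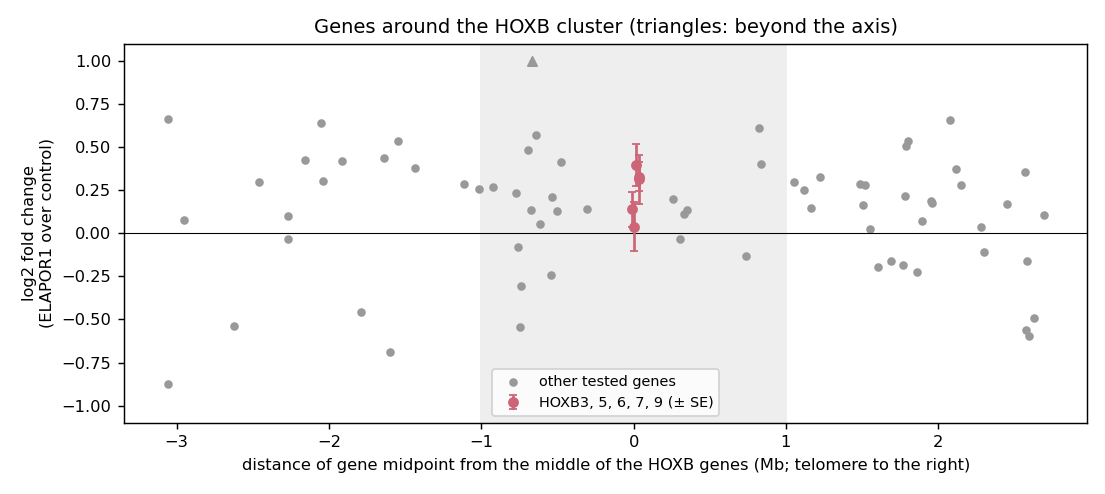
Log2 fold change (ELAPOR1 over control) of tested genes within 3 Mb of the HOXB cluster, against the distance of each gene's midpoint from the middle of the HOXB genes in Mb; the shaded band marks 1 Mb on each side. The 5 tested HOXB genes (red, ± SE) lie between 0.039 and 0.40, among neighbours (grey) that are mostly above 0.

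Proteins that act with or on HOX genes were taken from lists recalled from published knowledge and tested in the same fit. Beside all tested genes, of which 22.6% were called higher and 22.1% lower, TALE cofactors and their partners had 2 of 12 tested genes higher and 5 lower. PBXIP1, which binds PBX and keeps it from DNA, fell from 30.4 ± 2.84 to 20.1 ± 2.75 CPM (log2FC -0.60, SE 0.0832, edgeR adjusted p = 9.6e-07). TGIF1, a TALE repressor, fell from 68.2 ± 0.723 to 49.1 ± 0.969 CPM (-0.47, SE 0.0447, adjusted p = 1.1e-10). TGIF1 lies on the short arm of chromosome 18, where the other 11 tested genes within 1 Mb had a median log2FC of -0.28, with 9 below 0. The 52 near PBXIP1 had a median of -0.064, with 19 above 0.

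Trithorax and other activators had 9 of 21 tested genes higher and 2 lower, with a median log2 fold change of 0.090. RBBP5, a core subunit of the histone H3K4 methyltransferases, rose from 39.6 ± 2.21 to 49.4 ± 1.28 CPM (0.32, SE 0.0527, edgeR adjusted p = 7.2e-06). KAT6A, a histone acetyltransferase, rose (log2FC 0.29, SE 0.0485, adjusted p = 9.8e-06). PSIP1, which tethers KMT2A complexes to chromatin, fell (log2FC -0.27, SE 0.0362, edgeR adjusted p = 2.1e-07). All 3 had non-overlapping groups. The other 24 tested genes within 1 Mb of RBBP5 had a median log2FC of -0.18, with 6 above 0. The 14 near KAT6A had a median of -0.063, with 6 above 0, and the 6 near PSIP1 one of 0.049, with 4 above 0. The part of these surroundings was not tested.

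Polycomb genes went both ways, with 9 of 28 higher and 7 lower and a median of 0.0030. CBX2, a chromodomain subunit that reads the Polycomb mark, rose from 2.32 ± 0.453 to 3.86 ± 0.645 CPM (0.74, SE 0.197, edgeR adjusted p = 0.00231). PHC1, a Polycomb subunit whose counts held fractions, fell from 25.5 ± 1.40 to 15.9 ± 1.92 CPM (-0.68, SE 0.0792, adjusted p = 9.1e-09) and CBX7 from 27.2 ± 1.32 to 18.1 ± 1.08 CPM (-0.59, SE 0.0704, adjusted p = 1.5e-08). CBX2 and CBX7 are alternative subunits of the same type of complex, and their changes had opposite signs. The other 19 tested genes within 1 Mb of PHC1 had a median log2FC of -0.16, with 8 above 0. The 18 near CBX2 had a median of 0.0076, with 9 above 0, and the 33 near CBX7 one of 0.0095, with 17 above 0. The part of these surroundings was not tested.

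Retinoic acid is a textbook inducer of HOX clusters, and 3 of 14 tested genes of the retinoid, CDX and other inducer list were higher and 4 lower. CYP26B1, which degrades retinoic acid, rose from 2.88 ± 0.237 to 5.65 ± 0.611 CPM (0.97, SE 0.158, edgeR adjusted p = 5.5e-06). DHRS3, which turns retinal back to retinol, fell from 14.5 ± 1.77 to 8.97 ± 0.752 CPM (-0.69, SE 0.1002, adjusted p = 7.4e-07), and the receptor RARG from 75.2 ± 1.08 to 58.1 ± 2.66 CPM (-0.37, SE 0.0444, adjusted p = 1.5e-08). The other 9 tested genes within 1 Mb of CYP26B1 had a median log2FC of 0.12, with 8 above 0. The 13 near DHRS3 had a median of -0.13, with 5 above 0, and the 31 near RARG one of -0.12, with 11 above 0. The part of these surroundings was not tested. RARB, CDX1, CDX2 and CDX4 were at 0 in every library.

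CTCF and cohesin, which set boundaries within HOX clusters, had 5 of 11 tested genes higher and 1 lower. CTCF rose from 80.8 ± 4.29 to 104 ± 1.66 CPM (0.37, SE 0.0412, edgeR adjusted p = 4.6e-09), SMC1A from 226 ± 12.5 to 280.1 ± 4.28 CPM (0.31, adjusted p = 3.2e-09) and STAG1 from 68.7 ± 3.44 to 79.9 ± 1.25 CPM (0.22, adjusted p = 1.1e-04). The list of other HOX-binding proteins had 8 of 10 higher and 1 lower, beside 22.6% and 22.1% of all genes tested, with PARP1 at 0.34 (SE 0.0289, adjusted p = 1.2e-11), CREBBP at 0.28 (SE 0.0449, adjusted p = 4.8e-06) and XRCC6 at 0.19 (SE 0.0279, edgeR adjusted p = 1.0e-06). With each library left out in turn, 6 to 8 genes of the list of other HOX-binding proteins were called in either direction, against 9 with all libraries. Both CTCF and CREBBP lie on chromosome 16. The other 61 tested genes within 1 Mb of CTCF had a median log2FC of 0.17, with 42 above 0, and the 52 near CREBBP had a median of -0.096, with 18 above 0. Near SMC1A the 11 tested genes had a median of -0.011, with 5 above 0, and all 8 near STAG1 were below 0, with a median of -0.17. The 15 near PARP1 had a median of 0.0020, with 8 above 0, and the 35 near XRCC6 one of 0.088, with 24 above 0. The part of these surroundings in the values of TGIF1, PBXIP1, CTCF, CREBBP, SMC1A, STAG1, PARP1 and XRCC6 was not tested.

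Of 13 genes reported elsewhere as downstream of HOXB7 or HOXB9, 12 had a row under the symbol used and 6 were tested, with 3 higher and 1 lower. CXCL8, a neutrophil chemokine, rose from 0.949 ± 0.334 to 3.64 ± 0.251 CPM (1.94, SE 0.244, edgeR adjusted p = 5.0e-08). VEGFA, the main angiogenic factor, fell from 79.5 ± 2.91 to 57.9 ± 2.09 CPM (-0.46, SE 0.0445, adjusted p = 2.1e-10). AREG, a ligand of the EGF receptor, rose (log2FC 0.19, SE 0.0427, edgeR adjusted p = 5.5e-04). The other 7 tested genes within 1 Mb of CXCL8 had a median log2FC of 0.22, with 5 above 0. The 6 near AREG had a median of 0.27, with 4 above 0. The 38 near VEGFA had a median of -0.043, with 16 above 0. The part of these surroundings in the values of CXCL8, AREG and VEGFA was not tested. FGF2 had at most 1 count in any library and was not tested. The members of this list were thus not changed in 1 direction.

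**Figure D5:**
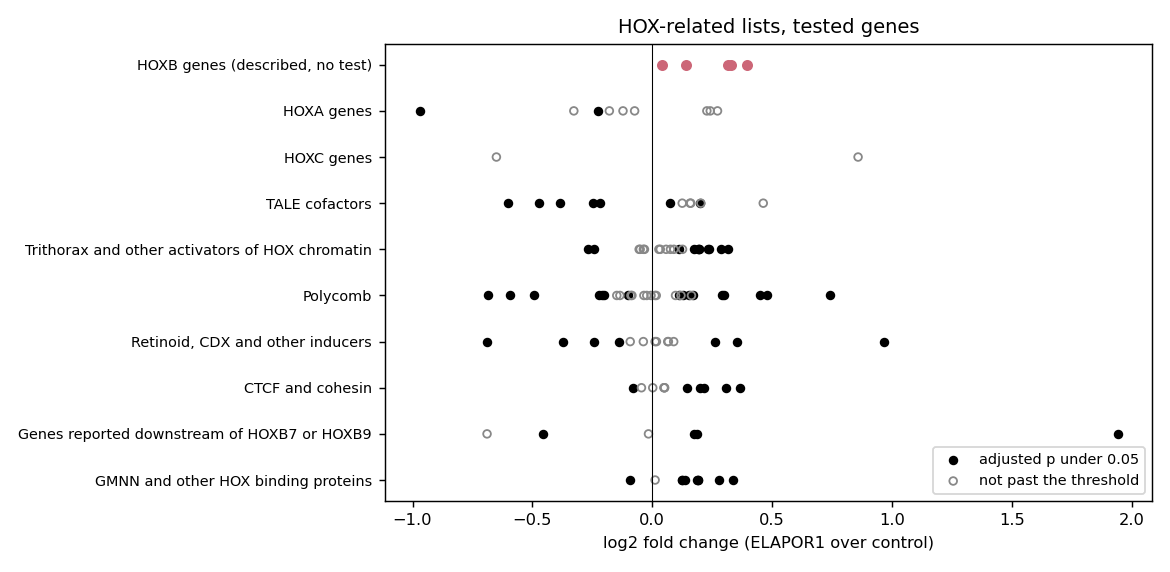
Log2 fold change (ELAPOR1 over control) of every tested gene of the HOX-related lists, 1 row per list; filled points passed an edgeR adjusted p-value of 0.05 and open points did not, and the HOXB genes (red) are described without a test. HOXA genes lie mostly at or below 0, Polycomb genes lie on both sides, and CXCL8 is the far point at 1.94.

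The genes whose pattern over the 8 libraries was most like the mean of the 5 tested HOXB genes were found by the root mean square difference of centred log2(CPM + 1), over the 10703 genes averaging 5 CPM or more. Outside chromosome 17 the nearest were SRRT (0.0172), WDR33 (0.0222), DDX39A (0.0285), NFX1 (0.0297) and IMP4 (0.0309). SRRT rose from 141 ± 6.60 to 162 ± 2.99 CPM, a log2FC of 0.20. HOXB6 and HOXB7 themselves ranked 2683 and 2951 on this measure. The mean pattern includes HOXB3 and HOXB5, with log2FC values of 0.14 and 0.039, below the 0.40 of HOXB6 and 0.33 of HOXB7. The nearest genes are thus alike to this mean and not to HOXB6 or HOXB7. The means of HOXB6 and HOXB7, 7.14 and 18.3 CPM, are below those of the 5 nearest genes (75.3 to 152 CPM). The parts of this averaging and of counting error in their ranks were not tested. Of the 100 nearest genes, 8 lie on chromosome 17, which holds 5.79% of the genes compared. Nothing is read from this share, because the HOXB genes were chosen from a stretch of that chromosome that was higher together.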

How the data were processed

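RNA was sequenced from 8 libraries (4 control, 4 ELAPOR1) on an Illumina NextSeq, per the labels' protocols. The authors deposited 1 table of expected counts per gene, 1 column per library, unscaled and not pooled; cutadapt, STAR, RSEM, DESeq2 and the build hg38 are named in the submitters' processing notes, and versions, annotation and use of strand are not given in the sources used here. Of nonzero values 15.0% were not whole. Positions and lengths are from GENCODE release 29 on GRCh38, where 58597 identifiers matched without their version. Expected counts were rounded and fitted with edgeR 4.0.16 in R 4.3.3 (filterByExpr, TMM, robust quasi-likelihood test, two-sided, Benjamini-Hochberg over 13860 genes, called under 0.05). The SE is the log2 fold change over the square root of F. CPM are counts per 1000000 scaled by TMM. The fit was tested on simulated data whose changes were larger than those of the HOXB genes, so it does not bear on changes of their size. Alternatives were other scalings, filters and tools (DESeq2 1.42.0, limma-voom from limma 3.58.1), the replicate block, each library left out, other lengths and, chosen after seeing the data, HOXB3 and HOXB6 added. The genes and lists were chosen with earlier results of these data known, and lists were recalled from published knowledge. Named were the 8 HOXB genes, other cluster genes, the 4 nearest tested coding genes on each side, up to 3 called genes per list with the largest change and a mean of at least 1 CPM, tested genes of other HOX clusters, and the 5 most alike genes outside chromosome 17; other genes named for a count were chosen after their values were seen. Plots were drawn with matplotlib 3.10.9. Values of genes within 1 Mb of each named list gene were added after seeing the data. They are given for the genes outside the HOX clusters whose change is printed. Some genes of these lists are not reported here by name.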

Additional observations from a re-analysis of the deposited data

Results flagged for a closer look

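In 7 of 116 groups of 4 libraries, 1 library stood away from its group by a gap past Dixon's 95% critical value for 4 samples, where 5.8 would be found by chance at 1 in 20. HOXB5 was at 5.59 CPM in ELAPOR1 replicate 1 and at 4.75 to 4.79 CPM in the other ELAPOR1 libraries. In control replicate 3, HOXA10 was at 16.4 CPM (13.96 to 14.2 in the others) and HOXA3 at 36.3 CPM (33.5 to 33.9). HOXA9 was at 0.427 CPM in control replicate 4, against 1.62 to 1.83 CPM. In ELAPOR1 replicate 2, TGIF1 was at 50.5 CPM (48.4 to 48.7 in the others) and RBBP5 at 51.3 CPM (48.5 to 48.9). CTCF was at 102 CPM in ELAPOR1 replicate 1, against 105 CPM in the others.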

How the results depend on the processing

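Over the alternatives tried, the log2 fold changes of HOXB3 (0.069 to 0.21), HOXB6 (0.35 to 0.45), HOXB7 (0.27 to 0.40) and HOXB9 (0.23 to 0.41) stayed above 0, and their median with HOXB5 ran from 0.23 to 0.35. Leaving out each library in turn, HOXB5 ran from -0.022 (without ELAPOR1 replicate 1) to 0.075, and HOXA9 from -0.019 (without control replicate 4) to 0.43; the causes were not tested. The count of called HOXA genes fell from 2 to 1 with total counts, without a filter, with at least 10 counts in every library (where HOXA4 was not tested), with DESeq2 and with the replicate block; leaving out each library in turn gave 1 to 2 for HOXA and 0 to 1 for HOXC genes. Same-numbered libraries showed little shared deviation (correlations from -0.0235 to 0.0356), and the main fit used no pairing. The libraries numbered 3 were each other's best match, at 0.0356. Such correlations cannot exclude a shared culture or preparation of same-numbered libraries. In the fit with the replicate block, HOXA10 had a log2 fold change of -0.22 and an adjusted p of 0.0530. By length per gene, 6 of the HOXB genes changed rank in control libraries with the longest transcript and 4 with the shortest coding transcript. All 5 of the most alike genes were the same with a minimum of 1 CPM. At 1 to 11 counts per library, HOXB2, HOXB4 and HOXB8 limit what depth can show.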
